A study of Rattus norvegicus with 10 samples.

Results

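The genes described here carry out or control glucose release by the liver and its response to glucocorticoids and fasting: Pck1, G6pc1, Fbp1, Ppargc1a, Igfbp1, Irs2, Tat, Nr3c1 and Tsc22d3. They were chosen by name, and each was read from its probe set with a single gene symbol, taking the one of highest variance over the 10 arrays where a gene had several. Of the 9 genes, 8 had such a probe set, out of 14217 genes read in the same way. G6pc1, the gene of the last enzyme of glucose production, was skipped because its 4 probe sets each list 3 genes, so that its signal cannot be told apart from that of Psme3 and Aoc3.

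The samples were whole livers of 10 male Wistar rats in which cirrhosis had been induced with inhaled CCl4. Of these, 5 rats received CVX-060, an inhibitor of Ang2 given to activate the Tie2 receptor, at 10 mg/kg into the tail vein once a week for 4 weeks, and 5 received vehicle once a week. Both groups were cirrhotic, and no healthy liver was analysed here. Each rat had its own Affymetrix rat array. Signals were deposited on a log2 scale, 1 per probe set, after the authors had normalized the arrays to each other, so that a difference of 1 is a change of 2-fold in signal. Array medians over all probe sets lay between 5.52 and 5.57. Over the probe sets with a single symbol, vehicle rat 2 had the highest median, 6.31, against 6.21 to 6.29 in the other rats. In whole liver, fewer cells of a type and less RNA per cell cannot be told apart. The age of the rats, their last meal and the hour at which livers were taken are not given in the sources used here.

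Between meals the liver releases glucose, which it takes from glycogen or makes from lactate, glycerol and amino acids. Glucagon, acting through cAMP and the factor CREB, and glucocorticoids, acting through the nuclear receptor that Nr3c1 encodes, raise transcription of the enzymes of this pathway, whereas insulin lowers it by keeping FOXO factors out of the nucleus. Ppargc1a encodes the coactivator PGC-1alpha, through which several of these signals act on the enzyme genes. In rodents, glucocorticoid release and many of these genes also follow the daily clock.

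The promoters of 4 members are shown because they held short motifs that were searched for. Sequences are from RefSeq on the GRCr8 assembly and cover the 250 bases before an annotated start, written 5′ to 3′ on the strand of the gene. Capitals mark the letters searched, on both strands: the cAMP response element as TGACGTCA or TTACGTCA, the FOXO site GTAAACA, the insulin response element CAAAACA to which FOXO factors bind, and the nuclear receptor site AGGTCA.
Pck1, chr3:182348322-182348571, + strand: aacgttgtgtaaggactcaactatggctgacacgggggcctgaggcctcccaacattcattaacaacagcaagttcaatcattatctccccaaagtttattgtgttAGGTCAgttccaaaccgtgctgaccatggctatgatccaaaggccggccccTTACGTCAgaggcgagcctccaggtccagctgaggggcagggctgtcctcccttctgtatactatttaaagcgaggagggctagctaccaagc
Ppargc1a, chr14:63634058-63634307, + strand: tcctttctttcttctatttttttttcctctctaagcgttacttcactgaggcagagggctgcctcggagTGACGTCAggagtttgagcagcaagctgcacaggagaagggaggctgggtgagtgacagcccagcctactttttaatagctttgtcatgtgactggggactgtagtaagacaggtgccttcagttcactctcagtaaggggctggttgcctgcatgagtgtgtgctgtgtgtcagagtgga
Igfbp1, chr14:86261027-86261276, + strand: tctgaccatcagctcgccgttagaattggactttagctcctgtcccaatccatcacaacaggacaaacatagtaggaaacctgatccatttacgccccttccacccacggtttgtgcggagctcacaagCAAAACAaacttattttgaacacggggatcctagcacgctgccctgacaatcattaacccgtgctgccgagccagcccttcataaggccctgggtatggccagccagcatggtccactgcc
Tsc22d3, chrX:109010035-109010284, - strand: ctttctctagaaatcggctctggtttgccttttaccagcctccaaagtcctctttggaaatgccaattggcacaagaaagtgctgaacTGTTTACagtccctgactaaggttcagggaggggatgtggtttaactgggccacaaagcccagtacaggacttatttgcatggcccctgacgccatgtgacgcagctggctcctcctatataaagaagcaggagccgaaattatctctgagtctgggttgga
In Pck1 the form TTACGTCA lay 93 to 86 bases before the start, and AGGTCA lay 144 to 139 bases before it. In Ppargc1a the palindrome TGACGTCA lay 181 to 174 bases before the start. The Igfbp1 promoter held CAAAACA at 121 to 115 bases, and the start of Tsc22d3 shown, the third listed, held GTAAACA on the other strand, written TGTTTAC, at 162 to 156 bases. Of 33469 rat promoters of this length, 0.75% hold TTACGTCA, 1.59% TGACGTCA, 3.21% GTAAACA, 5.46% CAAAACA and 14.1% AGGTCA. The glucocorticoid response element, AGAACA and TGTTCT with 3 free bases between them (0.012% of promoters), the single site AGAACA, which lies within it (17.5%), and the clock E-box CACGTG (5.59%) were not found in any of the 10 promoters of the 7 members that matched. Irs2 was not among the matched genes. A match is only a stretch of letters, and no match says only that these letters are not in this window.

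None of the 8 members differed between CVX-060 and vehicle beyond the spread between rats. With CVX-060, 7 of the 8 had a lower mean and 1, Ppargc1a, a higher one. The median of the 8 differences, CVX-060 minus vehicle, was -0.09 on the log2 scale, beside 0.01 over all 14217 genes, of which 47.4% had a lower mean. The groups overlapped in all 8 members, and over all genes 0.485% did not overlap. At an unadjusted p under 0.05 from limma there were 0 of 8 members and 2.44% of all genes. The adjusted p of every member was 0.999973, and no gene on the array passed an adjusted p of 0.05 (0%). Among 5 rats against 5, the exact permutation test over all 252 splits cannot give a p below 0.00794, and the lowest of a member was 0.127.

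**Figure D1:**
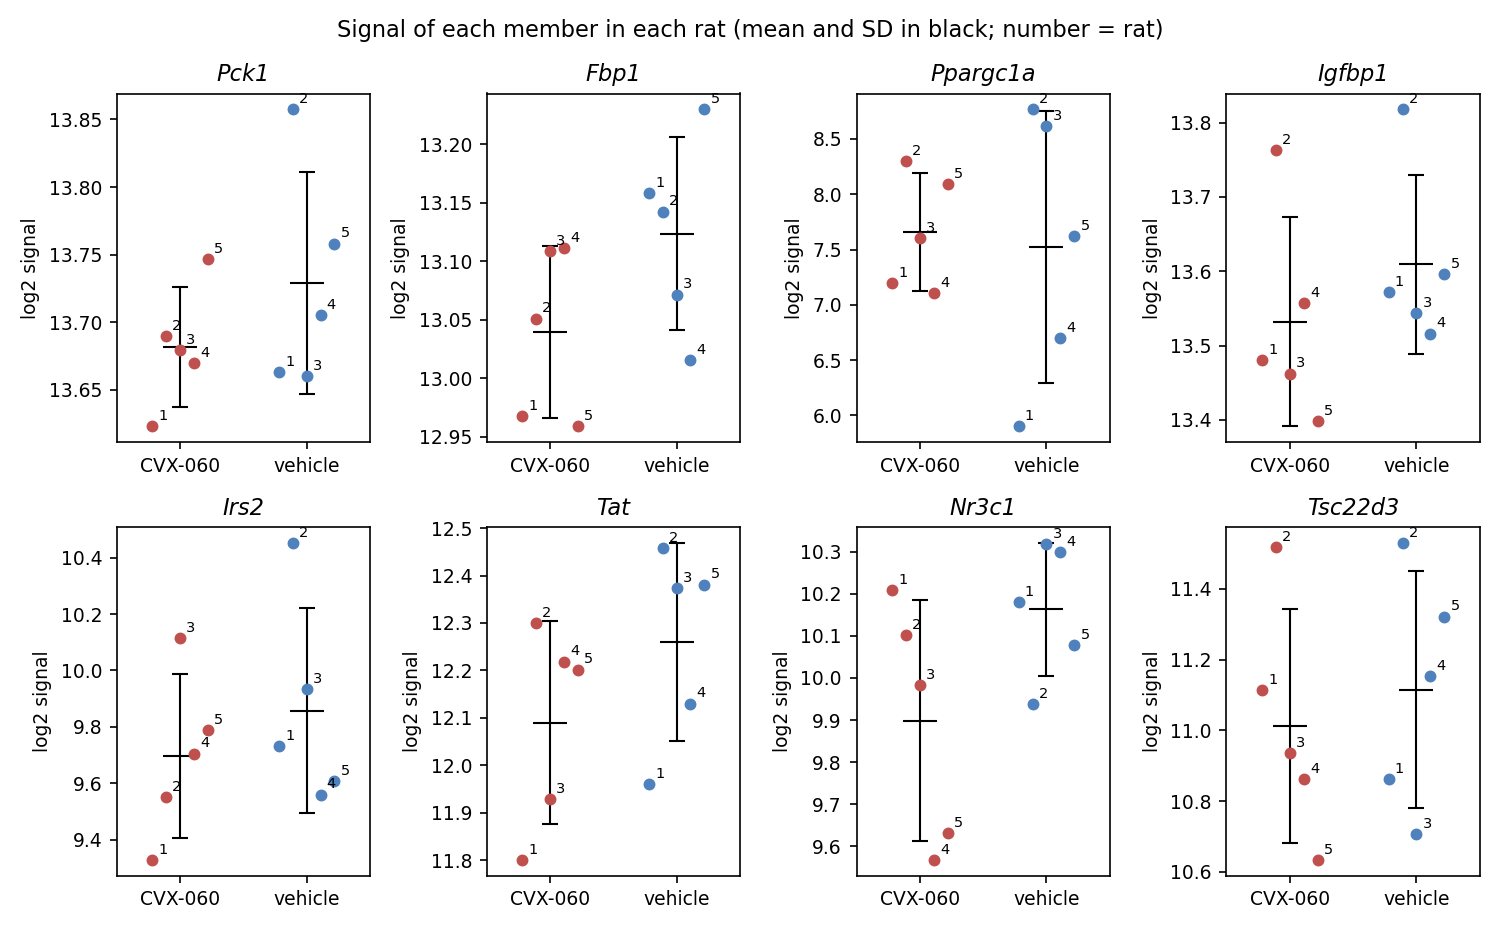
Log2 signal of the 8 members in each rat (numbered points), with CVX-060 on the left and vehicle on the right of each panel and the mean and SD of 5 rats in black. Each panel has its own axis, which does not start at 0, and the groups overlap in every panel; Ppargc1a spans 5.90 to 8.77, Pck1 only 13.62 to 13.86.

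Pck1, phosphoenolpyruvate carboxykinase, which catalyses the first committed step of glucose production, had log2 signals of 13.62, 13.69, 13.68, 13.67 and 13.75 in CVX-060 rats 1 to 5, against 13.66, 13.86, 13.66, 13.71 and 13.76 in vehicle rats 1 to 5. All rats lay close together, with vehicle rat 2 highest and CVX-060 rat 1 lowest. The means were 13.68 ± 0.04 with CVX-060 and 13.73 ± 0.08 with vehicle (SD, n = 5 each), a difference of -0.05 (standard error 0.06, 95% interval -0.18 to 0.09, exact permutation test, two-sided, p = 0.325), which was -0.015 without vehicle rat 2. Of all genes, 2.17% had a smaller SD over the 10 rats than Pck1. The highest signal of any probe set was 14.77 to 14.81 per array, so Pck1 was read near the top of the scale. Igfbp1, at 13.40 to 13.82, and Fbp1, at 12.96 to 13.23, also lay in this upper part. How far this narrows the ranges of these genes was not tested.

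Fbp1, the fructose-bisphosphatase that removes a phosphate further along the same pathway, had signals of 12.97, 13.05, 13.11, 13.11 and 12.96 in CVX-060 rats, against 13.16, 13.14, 13.07, 13.02 and 13.23 in vehicle rats. CVX-060 rats 1 and 5 lay below every vehicle rat, and the other CVX-060 rats lay among them. Fbp1 averaged 13.04 ± 0.07 with CVX-060 and 13.12 ± 0.08 with vehicle (SD, n = 5 each), a difference of -0.08 (standard error 0.07, 95% interval -0.23 to 0.06, exact p = 0.127).

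Ppargc1a was the most variable member. Its signals were 7.19, 8.30, 7.60, 7.10 and 8.09 in CVX-060 rats, against 5.90, 8.77, 8.62, 6.70 and 7.62 in vehicle rats. Both the highest and the lowest rat were given vehicle, and the range over the 10 rats was 7.28-fold. The vehicle rats alone spanned this range, and every CVX-060 rat lay inside it. The means were 7.66 ± 0.53 with CVX-060 and 7.52 ± 1.23 with vehicle (SD, n = 5 each), a difference of 0.14 (standard error 0.53, 95% interval -1.03 to 1.30, exact p = 0.833). The sign of this difference turned when vehicle rat 1 was left out, which gave -0.27, CVX-060 rat 2, which gave -0.02, or vehicle rat 4, which gave -0.07. Of all genes, 98.8% had a smaller SD than Ppargc1a. A second probe set of the gene, above background in 9 rats, correlated with it over the 10 rats with r = 0.99, and another, above background in only 4, with r = 0.88 and a different order of the highest and lowest rats. Their own differences were 0.01 and -0.17. Ppargc1a lay above background in 5 CVX-060 rats and 4 vehicle rats, where background is the level that 95% of 20 probe sets did not exceed on that array. These were picked by the start of their symbols as odorant, pheromone and trace amine receptors, taken as genes not used in liver. Their identities were not checked one by one. With so few probe sets the level depends on the percentile, with a median array at 4.66 for the 90th, 5.87 for the 95th and 6.79 for the 99th. The other 7 members lay above background in all 10 rats.

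Igfbp1, a secreted binding protein for insulin-like growth factors that insulin represses, had signals of 13.48, 13.76, 13.46, 13.56 and 13.40 in CVX-060 rats, against 13.57, 13.82, 13.54, 13.52 and 13.60 in vehicle rats. Rat 2 of each group was high, at 13.76 with CVX-060 and 13.82 with vehicle, and the other 8 rats lay between 13.40 and 13.60. Igfbp1 averaged 13.53 ± 0.14 with CVX-060 and 13.61 ± 0.12 with vehicle (SD, n = 5 each), a difference of -0.08 (standard error 0.09, 95% interval -0.27 to 0.12, exact p = 0.373). Without vehicle rat 2 and CVX-060 rat 5 the difference was 0.01.

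Irs2, a docking protein through which the insulin receptor signals in liver, had signals of 9.33, 9.55, 10.11, 9.70 and 9.79 in CVX-060 rats, against 9.73, 10.45, 9.93, 9.56 and 9.61 in vehicle rats. Vehicle rat 2 was highest and CVX-060 rat 1 lowest, and the remaining rats of the groups were mixed. The mean was 9.70 ± 0.29 with CVX-060 and 9.86 ± 0.36 with vehicle (SD, n = 5 each), a difference of -0.16 (standard error 0.19, 95% interval -0.58 to 0.26, exact p = 0.468). Without vehicle rat 2 it was -0.01.

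Tat, tyrosine aminotransferase, a classical target of glucocorticoids and glucagon that feeds amino acid carbon into glucose production, had signals of 11.80, 12.30, 11.93, 12.22 and 12.20 in CVX-060 rats, against 11.96, 12.46, 12.37, 12.13 and 12.38 in vehicle rats. Vehicle rats 2, 3 and 5 lay above every CVX-060 rat, whereas vehicle rats 1 and 4 lay among them. Tat averaged 12.09 ± 0.21 with CVX-060 and 12.26 ± 0.21 with vehicle (SD, n = 5 each), a difference of -0.17 (standard error 0.13, 95% interval -0.45 to 0.11, exact p = 0.230).

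Nr3c1, the glucocorticoid receptor, had the largest difference of the 8 members. Its signals were 10.21, 10.10, 9.98, 9.57 and 9.63 in CVX-060 rats, against 10.18, 9.94, 10.32, 10.30 and 10.08 in vehicle rats. CVX-060 rats 4 and 5 lay below all the others, and CVX-060 rats 1 to 3 lay among the vehicle rats. The means were 9.90 ± 0.29 with CVX-060 and 10.16 ± 0.16 with vehicle (SD, n = 5 each), a difference of -0.26 (standard error 0.14, 95% interval -0.57 to 0.04, exact p = 0.127). A second probe set of Nr3c1 lay below background in all rats, with a difference of 0.05. In the same CVX-060 rats 4 and 5, the female-type cytochrome gene Cyp2c12 stood at 9.79 and 12.02, against 7.28 to 7.58 in CVX-060 rats 1 to 3, and its part in the Nr3c1 values was not tested. Hao2, the other gene listed as female-type and above background, did not set rats 4 and 5 apart. It was 8.56 and 8.74 there and 8.04 to 11.38 in CVX-060 rats 1 to 3. Of the 4 male-type genes measured, Cyp2c11 and Mup5 in CVX-060 rat 4, at 13.54 and 10.89, lay within CVX-060 rats 1 to 3. Those had 12.69 to 13.90 for Cyp2c11 and 10.67 to 11.81 for Mup5. In CVX-060 rat 5 both were lower, at 11.42 and 9.07. Cyp3a2 (13.26 in both) and Cyp2c13 (13.45 and 13.26) were lower in CVX-060 rats 4 and 5 than in rats 1 to 3 (13.87 to 13.94 and 13.56 to 13.76). Among vehicle rats Cyp2c12 was 12.71 in rat 2 and between 7.11 and 8.54 in the rest. Hao2 had its lowest signal of all rats in vehicle rat 2, at 6.33, and was 10.67 to 11.42 in the other vehicle rats. In vehicle rat 2 Hao2 thus ran opposite to Cyp2c12, and it did not behave as a female-type gene there.

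Tsc22d3, which encodes the anti-inflammatory protein GILZ and is a direct target of the glucocorticoid receptor, had signals of 11.11, 11.52, 10.94, 10.86 and 10.63 in CVX-060 rats, against 10.86, 11.53, 10.71, 11.15 and 11.32 in vehicle rats. As for Igfbp1, rat 2 of each group was highest. The averages were 11.01 ± 0.33 with CVX-060 and 11.11 ± 0.33 with vehicle (SD, n = 5 each), a difference of -0.10 (standard error 0.19, 95% interval -0.52 to 0.32, exact p = 0.619). The difference was 0.00 without vehicle rat 2 and 0.10 without vehicle rat 2 and CVX-060 rat 5.

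**Figure D2:**
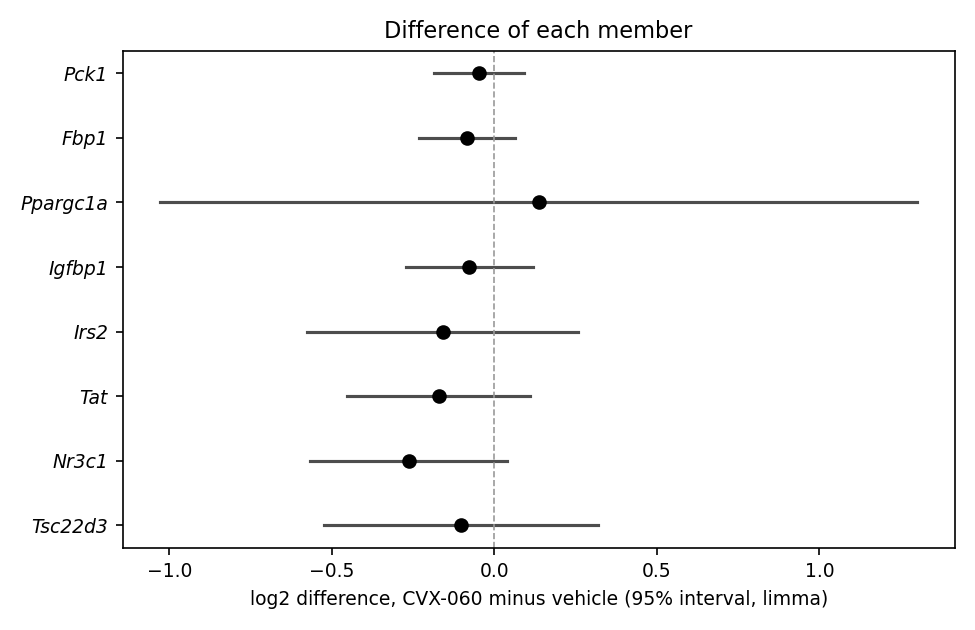
Difference in log2 signal, CVX-060 minus vehicle, of the 8 members (points) with the 95% interval from limma (bars). Every interval includes 0; that of Ppargc1a is the widest, from -1.03 to 1.30, and that of Pck1 runs from -0.18 to 0.09.

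The rats were not in the same order for all members. Vehicle rat 2 had the highest signal of 6 of the 8 members (Pck1, Ppargc1a, Igfbp1, Irs2, Tat and Tsc22d3), a count that was 3 with array medians set to 0 and 7 with quantile normalization, and that rat was highest in 14.9% of all genes. Its margin over the next rat was 0.34 for Irs2, 0.15 for Ppargc1a and between 0.01 and 0.10 for the other 4. CVX-060 rat 1 was lowest in Pck1, Irs2 and Tat, and CVX-060 rat 5 in Fbp1, Igfbp1 and Tsc22d3, where these rats were lowest in 7.99% and 13.1% of all genes. The first principal component, with 35.4% of the variance, set 2 rats apart, with scores of 35.5 for CVX-060 rat 5 and 34.5 for vehicle rat 2, and -26.2 to 9.74 in the rest. These rats also had the lowest signals of the male-type cytochrome gene Cyp2c11, 11.42 in CVX-060 rat 5 and 8.99 in vehicle rat 2, where the other 8 rats had 12.69 to 13.93. They deviated from the mean of the 10 rats in the same direction in 5 of the 8 members. Without both rats, 5 of the 8 members were lower with CVX-060, with a median difference of -0.03.

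Vehicle rat 2 was also highest in 6 of 9 lipid and ketone genes of fasting, which was looked at after the values had been seen. It was highest in 2 of 18 factors of the fasting response and in 4 of 19 other glucocorticoid targets, and lowest in 5 of those 19. Over all genes it was highest in 14.9% and lowest in 15.7%. Pdk4 and Angptl4 are counted both among the lipid and ketone genes and among the glucocorticoid targets. Pdk4, a kinase that keeps pyruvate for glucose production, was 13.25 in vehicle rat 2, where the other 9 rats had 10.01 to 11.75. Fgf21, a hormone that the fasted liver secretes, was 11.92 there and 5.58 to 9.48 in the others. Acot1, a thioesterase gene under PPARalpha, was 7.27 there and 3.31 to 4.07, below background, in the others. CVX-060 rat 5, the other rat apart on the first component, lay among the remaining rats in Pdk4 and Fgf21, at 11.62 and 7.18, and was 4.07 in Acot1. Of the glucocorticoid targets lowest in vehicle rat 2, Fkbp5, a cochaperone of the receptor, was 6.99 there and 7.51 to 9.46 in the others.

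**Figure D3:**
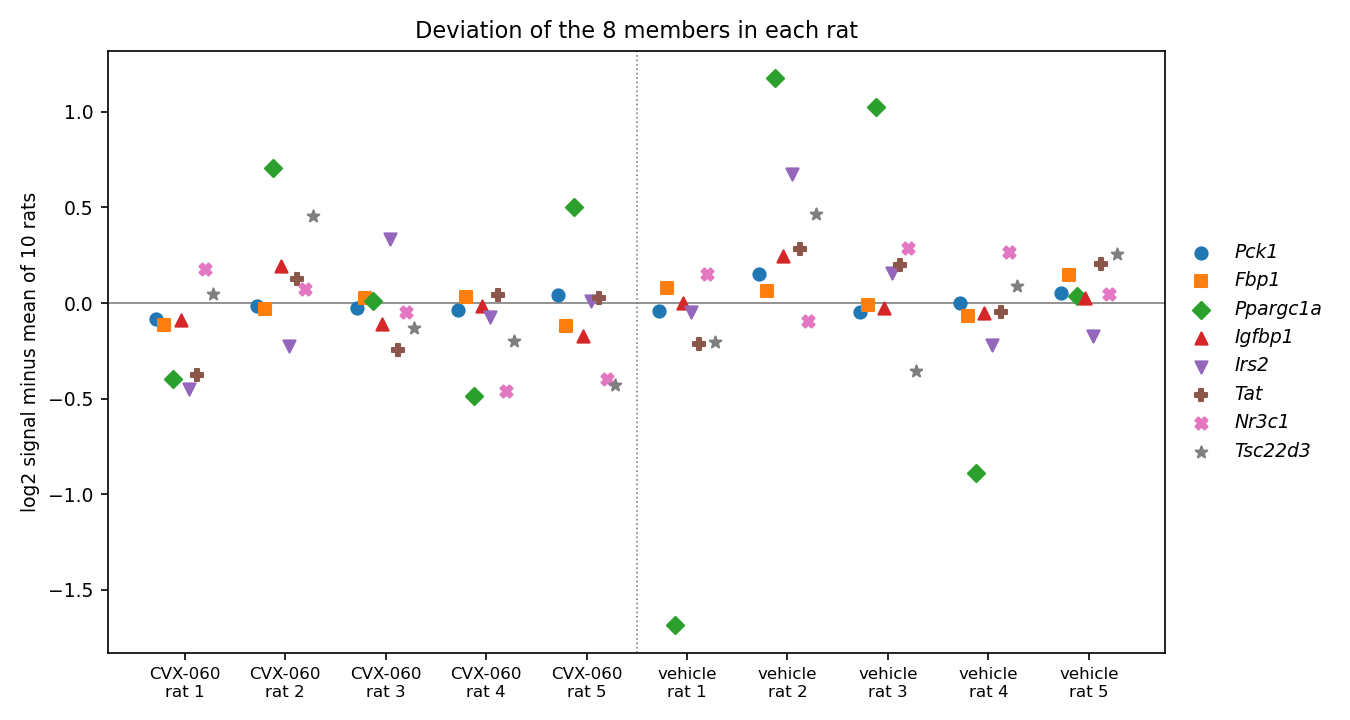
Deviation of each member's log2 signal from its mean over 10 rats (vertical axis), by rat, with the CVX-060 rats left of the vehicle rats and a symbol for each member. Ppargc1a (diamonds) spreads widest, and in vehicle rat 2 all members but Nr3c1 lie above 0.

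Over the 28 pairs of members, the correlation across the 10 rats was positive in 23 pairs and negative in 5, with r from -0.29 to 0.80. No pair passed an adjusted p of 0.05, by r or by rho, and 3 had an unadjusted p under 0.05 for r. Igfbp1 and Tsc22d3 had r = 0.80 (permutation test, p = 0.00455, adjusted p = 0.127) and rho = 0.66 (p = 0.0442, adjusted p = 0.309), and without the 2 rats farthest from the median of Igfbp1 r was 0.43, and without vehicle rat 2 and CVX-060 rat 5 it was 0.63. Ppargc1a and Tat had r = 0.67 (permutation p = 0.0353, adjusted p = 0.329) and rho = 0.70 (p = 0.0306, adjusted p = 0.309), with r = 0.51 without the 2 farthest rats. Pck1 and Tat had r = 0.67 (permutation p = 0.0266, adjusted p = 0.329) and rho = 0.59 (p = 0.0813, adjusted p = 0.455), with r = 0.44 without the 2 farthest.

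The genes whose pattern over the 10 rats was most like that of each member were found by Pearson's r, as a description without a test. For Pck1 they were Sik1, a kinase gene induced by cAMP (r = 0.91), and Creb3l3, a liver factor of the fasting response (r = 0.90). For Ppargc1a they were Ell2 (0.96) and Atg12 (0.94), for Igfbp1 Zfp869 (0.96) and Bag5 (0.93), and for Tsc22d3 Mepce (0.93) and Ppm1d (0.91). Those of Nr3c1 were Aadac, an arylacetamide deacetylase gene (0.97), and Nectin3 (0.96). For Tat they were Bcl2l11 (0.91) and Edrf1 (0.88), for Irs2 Lrp2 (0.90) and Pheta1 (0.88), and for Fbp1 Exoc3l1 (0.89) and Cyp4v3 (0.87). Each is the highest of very many values from the same 10 arrays.

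Bmal1, the activator of the core clock, had signals of 8.38, 8.75, 8.17, 5.75 and 5.21 in CVX-060 rats, against 7.90, 7.95, 5.13, 4.87 and 4.88 in vehicle rats. Its values separated high from low rats, with a gap of 2.15 between 5.75 and 7.90 in a range of 3.87. CVX-060 rats 1, 2 and 3 and vehicle rats 1 and 2 were above the gap, and CVX-060 rats 4 and 5 and vehicle rats 3, 4 and 5 below it. Bmal1 was above background in only the 5 high rats, both at the percentile used throughout and at the 99th. At the 90th percentile it was above background in all 10 rats. The low values thus lay near background, which may in part set the size of the gap. No correlation of a member with Bmal1 was computed, neither pooled over the separate sets nor within a set, each of which holds 5 rats where 6 were asked for. The signals of all 8 members overlapped between the high and the low rats. Ppargc1a lay at 5.90 to 8.77 in the high rats and at 6.70 to 8.62 in the low rats. Nr3c1 lay at 9.94 to 10.21 in the high rats, whereas the low rats held both its lowest and its highest values, 9.57 and 10.32.

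**Figure D4:**
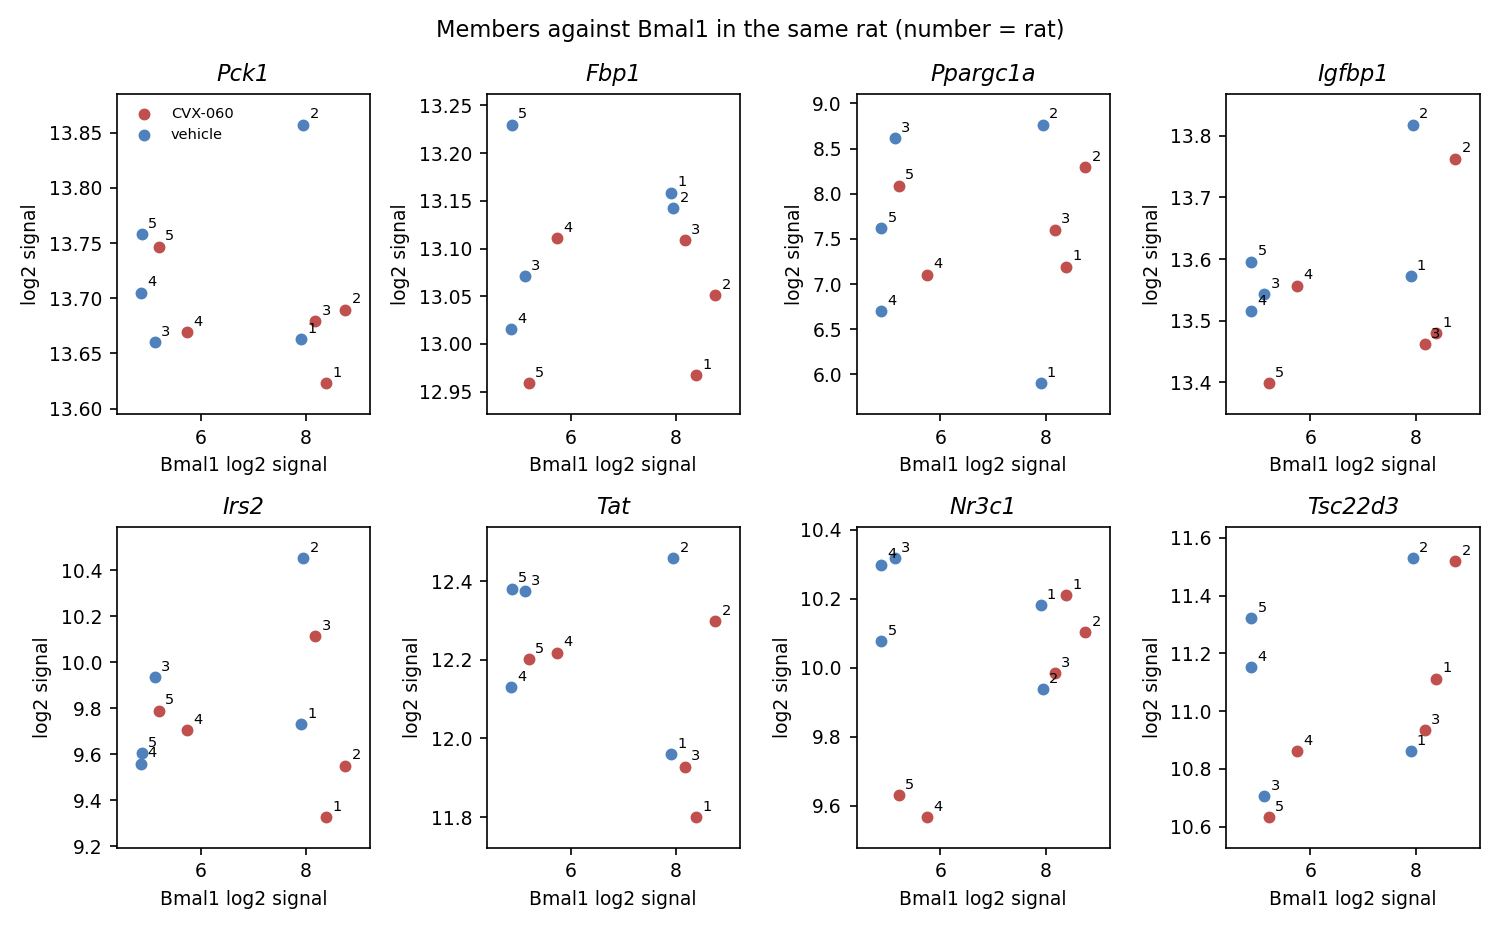
Log2 signal of each member (vertical axes, not starting at 0) against that of Bmal1 in the same liver (horizontal axes), with CVX-060 rats in red, vehicle rats in blue and the rat's number beside each point. The rats fall into 2 sets with Bmal1 at 4.87 to 5.75 and at 7.90 to 8.75, and each member's values overlap between them.

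Within the rats of high Bmal1, Nr3c1 differed by 0.04 between 3 CVX-060 and 2 vehicle rats. Within those of low Bmal1 it differed by -0.63 between 2 CVX-060 and 3 vehicle rats. These 2 CVX-060 rats, 4 and 5, were the lowest of all rats in Nr3c1, at 9.57 and 9.63. The contrast was not tested, and the sets are split on a measured value with only 2 or 3 rats per group. For Ppargc1a the differences were 0.36 in the high and -0.05 in the low rats, for Irs2 -0.43 and 0.05, for Tsc22d3 -0.01 and -0.31, and for Pck1 -0.10 and 0.00. Those of Tat (-0.20 and -0.08), Igfbp1 (-0.13 and -0.07) and Fbp1 (-0.11 and -0.07) were negative in both. The Bmal1 signal was also used as a covariate in limma, where it mostly separates the 2 sets of rats. The difference of Nr3c1 was then -0.33 (standard error 0.14, unadjusted p = 0.0465, adjusted p = 0.855). It was the only member with an unadjusted p under 0.05 in that fit, where 5.74% of all genes had one and no gene passed after adjustment (0%). The other members had adjusted p-values of 0.888 to 0.985 in it.

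Genes that act beside the members were read from lists, and none passed an adjusted p of 0.05 in limma. Of the other enzymes and carriers of glucose production, 19 of 21 were measured, 9 higher and 10 lower with CVX-060 (median 0.00), and 0 had an unadjusted p under 0.05, beside 1.27% of all genes for higher and 1.17% for lower signals. The pair with the smallest limma p were the monocarboxylate carrier Slc16a1, with 0.30 (exact p = 0.135), and the phosphoglycerate kinase Pgk1, with 0.18 (exact p = 0.0794). Of hepatic glycolysis 11 of 12 genes were measured, 6 higher and 5 lower (median 0.01), with Pfkfb3 at 0.42 (exact p = 0.230) and Hk2, below background in all rats, at 0.17. From the brightest of its probe sets, Pfkfb3 differed by -0.02. Of glycogen metabolism 11 of 13 were measured, 5 higher and 6 lower (median 0.00). By limma p the first of them were Ugp2, which makes UDP-glucose, at -0.33 (exact p = 0.310), and the kinase Gsk3b at -0.09 (exact p = 0.206).

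Among factors of the fasting response, 18 of 19 were measured, 2 higher and 16 lower, with a median of -0.12 and 0 at an unadjusted p under 0.05. Klf15, a glucocorticoid-induced factor of amino acid use, differed by -0.36 (6.92 ± 0.32 with CVX-060 and 7.28 ± 0.27 with vehicle, SD, n = 5 each, exact p = 0.0714), and 4 of 5 CVX-060 rats lay below every vehicle rat. From its brightest probe set Klf15 differed by -0.23. Cebpb, a factor that acts with CREB on Pck1, differed by -0.13 (exact p = 0.111). Of insulin and glucagon signalling 17 of 18 were measured, 6 higher and 11 lower (median -0.06), with the kinase Akt1 at 0.16 (exact p = 0.0635) and the adaptor Gab1 at -0.18 (exact p = 0.111). All 9 genes of the IGF system were measured, 1 higher and 8 lower (median -0.06), the higher one being Igfbp2 at 0.56 (exact p = 0.246), and the growth hormone receptor gene Ghr differed by -0.30 (exact p = 0.317).

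Of the glucocorticoid targets other than the members, 19 of 20 were measured, 7 higher and 12 lower (median -0.04), with 0 at an unadjusted p under 0.05. The cell cycle inhibitor Cdkn1a differed by 0.91 (9.20 ± 0.78 with CVX-060 and 8.29 ± 0.88 with vehicle, SD, n = 5 each, exact p = 0.127). This difference was 0.37 with the Bmal1 level as covariate and 1.41 with array weights. Angptl4, an inhibitor of lipoprotein lipase, differed by -0.78 (exact p = 0.167). Genes that supply or hold glucocorticoid signalling numbered 11 of 13 measured, 2 higher and 9 lower (median -0.04). Among them Hsp90ab1, a chaperone of the receptor, differed by -0.28 (exact p = 0.0794), but by 0.06 from its brightest probe set, and the mineralocorticoid receptor gene Nr3c2 by -0.20 (exact p = 0.143). Amino acid catabolism had 18 of 19 measured, 9 higher and 9 lower (median 0.00), with Sdsl at -0.19 and the aspartate aminotransferase Got1 at 0.19.

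Of the lipid and ketone genes of fasting, 9 of 10 were measured, 1 higher and 8 lower, with a median of -0.43. This count rests on vehicle rat 2, without which 5 were higher and 4 lower and the median was 0.00. Lpin2, which makes diacylglycerol, was the only one at an unadjusted p under 0.05, with 8.49 ± 0.50 for CVX-060 and 9.27 ± 0.60 for vehicle (SD, n = 5 each, exact p = 0.0556, adjusted p = 0.999973). Of the clock genes, Bmal1 included, 17 of 19 were measured, 4 higher and 13 lower (median -0.20), and 3 had a lower signal at an unadjusted p under 0.05. Over all genes, 1.17% had a lower signal at that p, and 0.485% did not overlap between the groups. Nr1d1 and Per3 are named as the clock genes of smallest limma p. Nr1d1, the clock repressor REV-ERBalpha, lay at 5.08 to 5.97 with CVX-060 and at 6.03 to 7.01 with vehicle, without overlap (difference -0.84, exact p = 0.00794, the smallest the test can give, adjusted p = 0.999973). It was above background in 1 CVX-060 rat and 5 vehicle rats. Per3, above background in 2 CVX-060 rats and 5 vehicle rats, differed by -1.14 (exact p = 0.0397). These counts depend on the background percentile. Nr1d1 was above background in 9 rats at the 90th and 3 at the 99th, and Per3 in 10 and 6. Some genes stand in several of these lists.

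The tissue was liver by its markers, with 10 of 11 hepatocyte markers above background in all rats and the probe set of Fgb below it in all. Their mean signal was 11.50 to 11.69 with CVX-060 and 11.56 to 11.64 with vehicle. Sinusoidal endothelial markers were higher with CVX-060 in 7 of 7 genes (median 0.35, mean signal 8.72 to 9.23 with CVX-060 and 8.30 to 8.92 with vehicle), 2 of them at an unadjusted p under 0.05. Of the markers of macrophages and Kupffer cells, 8 of 8 were higher (median 0.25, mean signal 8.78 to 9.69 with CVX-060 and 8.81 to 9.25 with vehicle), 1 of them at an unadjusted p under 0.05. Over all genes, 1.27% had a higher signal at that unadjusted p. None of these markers passed after adjustment, and their part in the lower means of the 7 members was not tested. Of the other markers, 8 of 10 of stellate cells and myofibroblasts, 3 of 6 of cholangiocytes, 6 of 9 of T and NK cells and 3 of 4 of B and plasma cells had a higher mean with CVX-060. Of 7 genes of adrenal cortex and fat cells measured, 5 (Cyp11b1, Star, Adipoq, Lep and Plin1) lay below background in all rats, and 2, Cyp17a1 and Fabp4, above it in all.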

How the data were processed

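Total RNA of each frozen liver, 150 ng per rat, was labelled and hybridized to its own Affymetrix rat array. The deposited log2 signals had been normalized between arrays by the authors, and the submitters' notes list R 3.4.0 with limma 3.38.2 and affy 1.56.0. Background correction and summary method are not given in the sources used here. In one label field the agent's number runs on from rat to rat within a group. Groups were taken from the treatment labels.

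Of 31099 probe sets, 57 controls, 9780 that carry no symbol and 436 that carry several were dropped. Each of the 14217 genes left was read from its most variable probe set, as in the study's methods. The study retained 2 replicates per treatment, and all 10 rats were used here. The groups were compared in R 4.3.3 with lmFit and eBayes of limma 3.58.1, p-values were adjusted over all genes by Benjamini-Hochberg, and single genes were tested also by an exact permutation test. Correlations used 100000 permutations, adjusted over 28 pairs. Promoter motifs were searched on both strands. Scripts ran under Python 3.11.15 with scipy 1.17.1, numpy 2.4.6, matplotlib 3.10.9 and pandas 2.3.3, and the limma step was tested on simulated data.

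The members and lists were chosen with earlier results of these data known. By rule, the named genes are the members, Bmal1 and the 2 genes of smallest limma p in each pathway list. For each member they also include the 2 genes of highest r with a mean signal at or above the 40th percentile. Pdk4, Fgf21, Acot1 and Fkbp5 were named outside this rule, after the data were seen, for their values in vehicle rat 2. Cyp2c11, Cyp2c12, Hao2, Mup5, Cyp3a2 and Cyp2c13 were likewise named to describe single rats, and some marker genes for lying above or below background. Alternatives were other probe sets, a filter, other scalings, array weights, another variance prior, the replicate number as a block, the Bmal1 covariate, other background percentiles and leaving out rats. The scalings behind the count of members highest in vehicle rat 2, and the lists without that rat, were added after the data were seen. The number of arrays limits the precision.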

Additional observations from a re-analysis of the deposited data

Results flagged for a closer look

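Igfbp1 in vehicle rat 2 stood apart from the other vehicle rats at 13.82, where they had 13.52 to 13.60. It was the 1 such rat in 16 groups of 5 tested over the 8 members, and chance gives about 1 in 20 groups. CVX-060 rat 2, at 13.76, was also the highest of its group.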

How the results depend on the processing

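No gene passed an adjusted p of 0.05 under any of 20 alternative settings, where the lowest adjusted p of a member was 0.855. The 347 genes at an unadjusted p under 0.05 became 557 with every probe set tested, 156 with a filter at the 40th percentile, 686 with array weights, 816 with the Bmal1 level as covariate, 581 without vehicle rat 2 and CVX-060 rat 5, and 290 to 713 with each rat left out in turn, the highest without vehicle rat 2. The cause was not tested. The median of the members stayed between -0.18 (without vehicle rat 1) and -0.02 (without vehicle rat 2), and 5 to 8 members were lower. Of 160 member values under these settings, 7 changed sign: Tsc22d3 to 0.069 with array weights, to 0.097 without those 2 rats and, over the single rats left out, from -0.23 (without CVX-060 rat 2) to 0.0020 (without vehicle rat 2), Igfbp1 to 0.0086 without those 2 rats, and Ppargc1a, which ran from -0.27 to 0.45 over the single rats left out. Of the list genes, Pfkfb3 gave -0.024 and Hsp90ab1 0.061 from the probe set of highest mean. Of the 29 genes compared by name, 27 had a difference that moved by over 1.5 times in some setting, all but Nr3c1 and Nr1d1. Among them Got1 was 0.03 without vehicle rat 1 and Ghr -0.12 without CVX-060 rat 5. Without vehicle rat 2, which was added after the data were seen, the lipid and ketone list had a median of 0.00 and the other pathway lists -0.32 to -0.02. The deviations of same-numbered rats of the groups had correlations of -0.17 to 0.15, 1 of 5 over 0.1. Such correlations cannot exclude a pairing, and the labels give only a replicate number, so whether the numbers pair the rats is not known. With the replicate number as a block 389 genes had an unadjusted p under 0.05 and the median was -0.09. Ppargc1a was above background in 9 rats at the 95th percentile, 10 at the 90th and 8 at the 99th, and the other members in all rats at each.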
